A study of Mus musculus with 2 samples.

Results

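The goblet mucus genes are 7 genes, Muc2, Tff3, Zg16, Fcgbp, Clca1, Spink4 and Agr2, that were picked by symbol from the 55357 genes of 2 single-cell tables of mouse small intestinal epithelium. All 7 had a row in both tables. One table came from Adipfl/fl mice, whose adiponectin gene carries loxP sites and is intact, and the other from Adipfl/flpVilli-CreT littermates, in which a Cre driven by the villin promoter removes adiponectin in epithelial cells. Per the study's methods and legends, the mice were male and 8 weeks old, several animals were pooled for each sample, and dead cells were removed on magnetic beads before capture. The study's results state that the epithelium was enriched for crypts, a step that its single-cell methods do not describe. The 2 genotypes are called the control and the Cre library here. With 1 library per genotype there was no test between genotypes, and every 95% interval given covers counting error only.

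Goblet cells are secretory cells of the gut lining that fill their apical side with mucus granules and release them over the epithelium. The gel-forming mucin folds in the endoplasmic reticulum, receives a dense coat of O-linked sugars in the Golgi, is packed dry, and swells into a net on release. In the small intestine the goblet cells stand scattered among absorptive enterocytes and share their crypt origin and the regulator Atoh1 with Paneth cells, the antimicrobial cells of the crypt base. Of the 7 genes, Muc2 encodes the gel-forming mucin itself. Fcgbp encodes a large mucus protein that binds to the net, Zg16 a lectin that binds bacterial wall sugars, Tff3 a small trefoil peptide that serves epithelial repair, and Clca1 a secreted metalloprotease that acts on mucus. Spink4 encodes a small secreted protein of the Kazal protease inhibitor family, and Agr2 a protein disulfide isomerase that stays in the endoplasmic reticulum and is needed for mucin production.

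The genes lie apart in the genome (GRCm38, GENCODE annotation). Muc2 spans chr7:141690340-141754693 on the plus strand, Fcgbp chr7:28071236-28120862 on the plus strand, and Zg16 chr7:127050156-127087328 on the minus strand. Tff3 spans chr17:31125306-31129646 on the minus strand, Clca1 chr3:145003817-145032776 on the minus strand, Spink4 chr4:40920052-40931395 on the plus strand, and Agr2 chr12:35992907-36004087 on the plus strand. All 7 are annotated as protein coding, and the span of Zg16 is crossed on the other strand by the noncoding genes Gm44939 and Gm22747.

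Upstream sequence from RefSeq (GRCm38.p6) was at hand for 3 of the 7 genes. The 250 bases before the RefSeq start site are shown for each of these 3 genes. How the 3 genes varied across goblet barcodes is described further on, and a link between that and the motifs was not tested. The windows are chr7:141690090-141690339 for Muc2, chr7:28070986-28071235 for Fcgbp and chr12:35992675-35992924 for Agr2, each read 5′ to 3′ on the plus strand, and capitals mark every match, on either strand, to the 4 short motifs named in the next paragraph.
Muc2: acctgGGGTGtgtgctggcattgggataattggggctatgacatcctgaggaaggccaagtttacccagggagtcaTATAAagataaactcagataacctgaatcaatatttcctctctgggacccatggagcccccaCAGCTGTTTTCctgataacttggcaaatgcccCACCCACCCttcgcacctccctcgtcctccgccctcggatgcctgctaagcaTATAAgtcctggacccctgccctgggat
Fcgbp: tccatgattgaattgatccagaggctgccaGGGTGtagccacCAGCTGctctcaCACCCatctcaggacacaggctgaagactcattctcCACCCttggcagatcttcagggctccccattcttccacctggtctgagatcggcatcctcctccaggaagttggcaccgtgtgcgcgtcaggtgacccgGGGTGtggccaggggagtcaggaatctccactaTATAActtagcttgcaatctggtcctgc
Agr2: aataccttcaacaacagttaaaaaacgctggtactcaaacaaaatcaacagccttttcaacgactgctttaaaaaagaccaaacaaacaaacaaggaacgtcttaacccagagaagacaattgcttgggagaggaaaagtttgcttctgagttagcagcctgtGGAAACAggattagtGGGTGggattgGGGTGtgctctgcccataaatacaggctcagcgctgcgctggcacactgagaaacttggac

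CAGCTG, a form of the E-box that basic helix-loop-helix proteins bind, stood once in the Muc2 window, at -112, and once in the Fcgbp window, at -208, and was not among the letters of the Agr2 window. Positions give the leftmost base of a match, counted back from the start site. TATAA, the core of the TATA box, stood at -28 in Fcgbp and at the same distance and once more farther upstream in Muc2, with no match in Agr2. CACCC, the core that Klf proteins bind, had 3 matches in Muc2, 4 in Fcgbp and 2 in Agr2. The forkhead core TGTTTNC had 1 match in Muc2, at -108, which overlapped the CAGCTG, and 1 in Agr2, at -87 on the other strand. Of 32851 windows of the same length upstream of mouse genes, 13.0% held CAGCTG, 52.0% the Klf core, 22.8% the TATA box core and 17.8% the forkhead core, and the matches are given as a description.

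The control library held 9791 barcodes and the Cre library 11838, and 3069 and 5555 of them passed the filter of more than 500 genes and under 25% mitochondrial UMIs (unique molecular identifiers, 1 per captured transcript molecule), with a median of 4838 and 4749 UMIs. Of 7739 control and 9818 Cre barcodes with more than 500 genes, the mitochondrial limit removed 4670 and 4263, a larger part in the control library. The libraries shared 31 barcode sequences, 3 of them among the barcodes that passed. Adipoq, the targeted gene, had 1 UMI in the whole control library and 0 in the Cre library, and 0 in the barcodes that passed, which allows up to 0.117 and 0.0614 counts per 1000000 UMIs (CPM), so it did not check the labels. Barcodes were clustered without the 7 genes and clusters were named from other markers, so that the levels of the 7 genes did not choose the barcodes in which they were measured.

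The goblet-like class was 1 cluster of 227 control and 407 Cre barcodes. It carried 16 of the 18 goblet markers, among them Atoh1, Spdef, Fer1l6 and Bcas1, and also 7 of the 9 Paneth markers. No cluster carried the Paneth name, so goblet and Paneth transcripts were found in the same class. The share of goblet-like barcodes was 7.40% (95% exact binomial interval 6.50 to 8.38) in the control library and 7.33% (6.66 to 8.04) in the Cre library, a ratio of 0.991 (0.840 to 1.17). These are shares of the barcodes that passed, and the mitochondrial limit had removed unequal parts of the libraries. The median depth in the class was 5582 and 6295 UMIs.

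In goblet-like barcodes the 7 genes together made up 32.2% of all UMIs in the control and 26.9% in the Cre library. Levels are given as CPM, a gene's UMIs in all barcodes of the class for every 1000000 UMIs that the class holds, which is 321757 CPM and 268737 CPM for the sum of the 7 genes. The 3′ kit counts molecules, so the levels of genes of different length are set side by side without division by length. Zg16, Tff3, Muc2 and Fcgbp were in that order the 4 highest genes of the class in both libraries. Spink4 ranked 8 in both, Clca1 9 and 10, and Agr2 22 in both.

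Zg16, the lectin, stood at 104958 CPM (95% exact Poisson interval 104500 to 105417) in the control and 86598 (86297 to 86899) in the Cre library. Tff3, the trefoil peptide, stood at 100193 (99746 to 100642) and 82279 (81986 to 82573). Muc2, the mucin, stood at 46272 (45968 to 46577) and 41014 (40807 to 41221) CPM. Fcgbp stood just below Muc2, at 43494 (43200 to 43790) and 33979 (33791 to 34168). Spink4 followed with 12534 (12377 to 12694) and 10949 (10842 to 11056), and Clca1 with 10404 (10260 to 10549) and 9241 (9143 to 9340). Agr2, the isomerase, was the lowest, at 3901 (3813 to 3990) in the control and 4678 (4608 to 4748) in the Cre library. The intervals of no neighbouring pair in this order overlapped in either library. Of the 7 levels, 6 were lower in the Cre library and 1, that of Agr2, was higher.

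**Figure D1:**
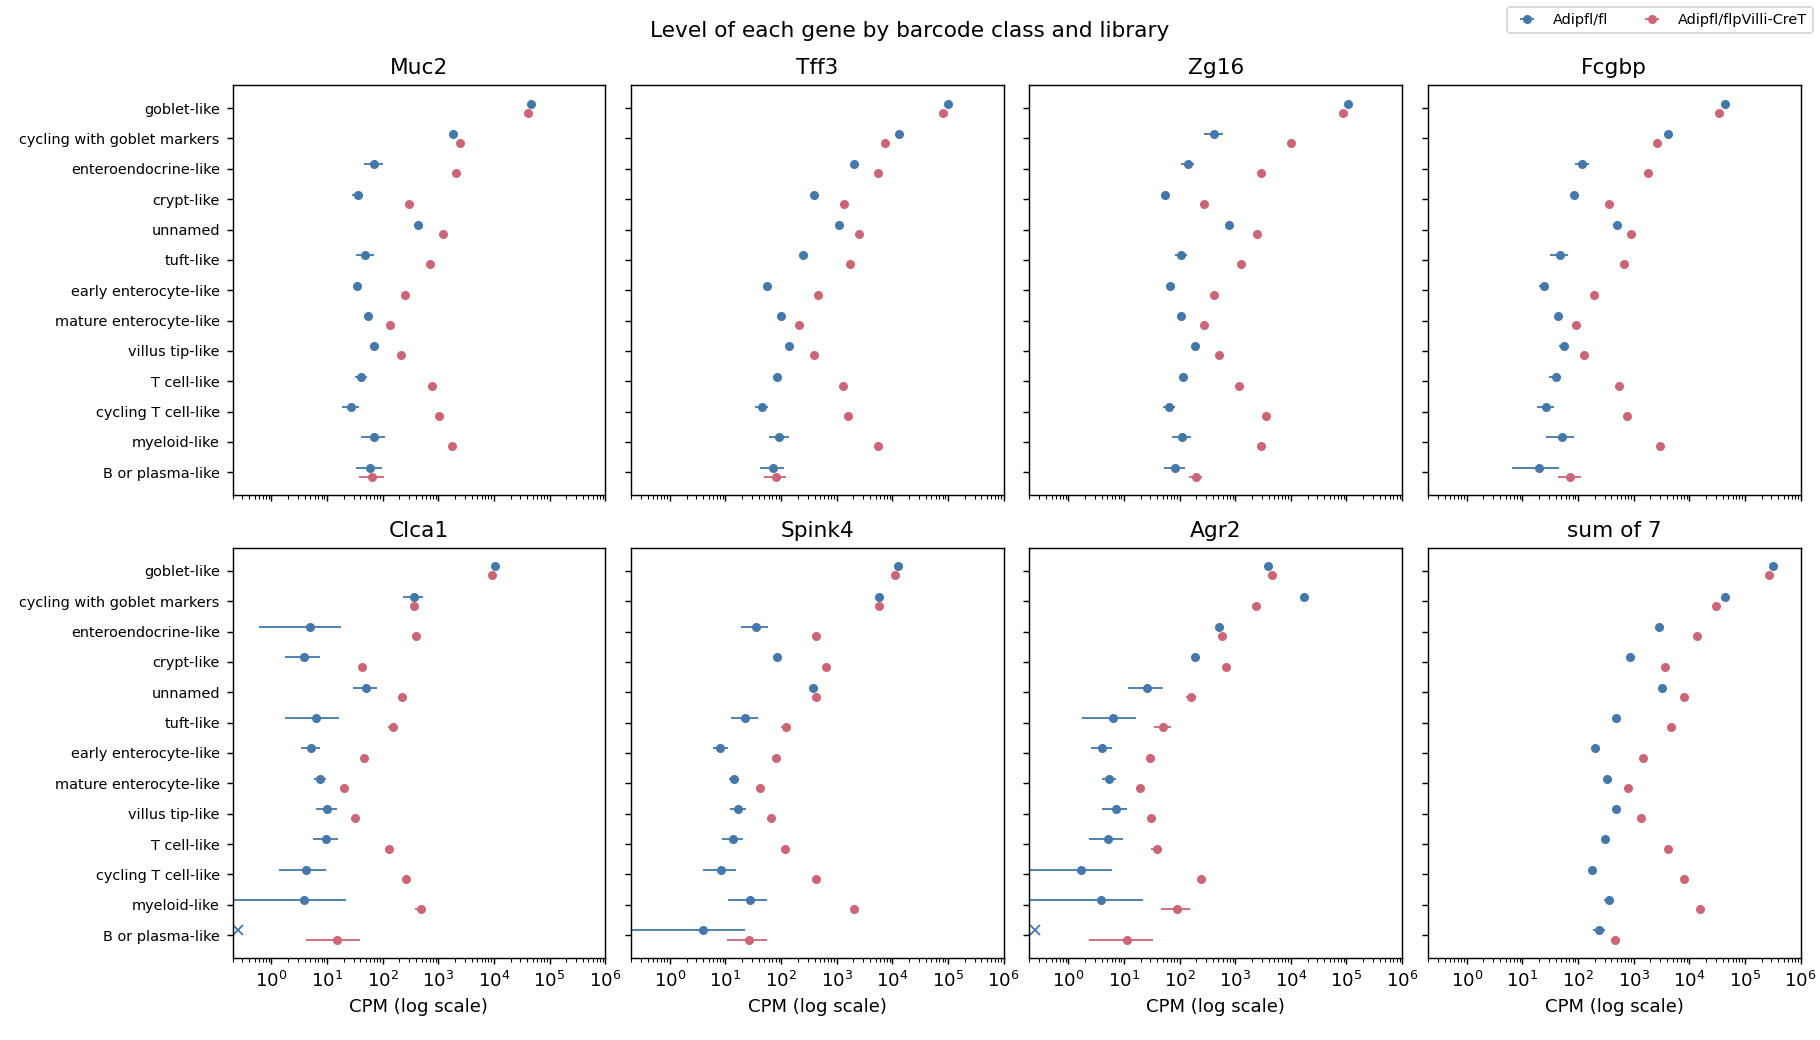
Level of each of the 7 genes and of their sum in 13 barcode classes, in CPM on a log axis, with blue for Adipfl/fl and red for Adipfl/flpVilli-CreT. Points are summed levels of 1 library, bars are 95% exact Poisson intervals for counting error (cut at the left edge), and crosses at the left edge stand for 0 UMIs. Goblet-like barcodes stand highest for every panel except Agr2 in the control library, and outside them the red points lie mostly right of the blue ones.

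The differences between the libraries in goblet-like barcodes were small. Set as the level of the Cre over the control library, the fold was 0.835 (0.833 to 0.838) for the sum, 0.886 (0.879 to 0.894) for Muc2, 0.821 (0.817 to 0.826) for Tff3, and 0.825 (0.821 to 0.830) for Zg16. It was 0.781 (0.774 to 0.788) for Fcgbp, 0.888 (0.873 to 0.904) for Clca1, 0.873 (0.860 to 0.888) for Spink4 and 1.199 (1.17 to 1.23) for Agr2. None of the 7 passed 1.5-fold in either direction, where 8.17% of the 2779 genes with a usable level (at least 50 CPM in the higher library and at least 20 UMIs in all) did. The median fold was 0.873 for the 7 genes against 1.08 for all of these genes. CPM add up to a fixed total, of which the 7 genes held a large part, so their lower share by itself raises the CPM of other genes. These medians are therefore not independent. Without the 7 genes in the total the fold of the sum was 0.775. The narrow intervals reflect the number of UMIs, from 7489 for Agr2 to 201503 for Zg16 in the control library, and say nothing of differences between animals or preparations.

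The fold of the sum moved toward 1 when the make-up of the class was held apart. When the goblet-like barcodes were left without their sub-cluster of enterocyte genes (described further on), a step chosen after the data were seen, the fold of the sum was 0.968, that of Muc2 1.03 and that of Clca1 1.01, and when the 3 sub-clusters were weighed equally the fold of the sum was 0.983. Agr2 was higher in the Cre library under all 15 alternatives run, from 1.11 to 1.74-fold, and Fcgbp and Zg16 were lower under all 15, at 0.725 to 0.953 and 0.765 to 0.968, though Zg16 was not lower within each sub-cluster.

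The 7 genes stood in the same order within their sum in both libraries, and the share of Agr2 had the largest relative difference. Zg16 gave 32.6% of the sum in the control and 32.2% in the Cre library, Tff3 31.1% and 30.6%, Muc2 14.4% and 15.3%, and Fcgbp 13.5% and 12.6%. Spink4 gave 3.90% and 4.07%, Clca1 3.23% and 3.44%, and Agr2 1.21% and 1.74%.

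Single goblet-like barcodes differed widely in how much of their RNA was mucus RNA. The 7 genes made up 0.0276% of the UMIs in the lowest control barcode, 35.3% in the median one and 59.0% in the highest. In the Cre library the lowest barcode held 2.79%, the median 32.0% and the highest 54.0%. The middle 80% of barcodes ran from 12.9% to 46.2% in the control and from 10.5% to 46.9% in the Cre library, so the barcodes of the 2 libraries overlapped over nearly their whole range. More than 20% of the UMIs came from the 7 genes in 190 of 227 and 300 of 407 barcodes.

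For a single gene the spread was also wide. The share of Muc2 ran from 0% over a median of 5.72% to 11.7% of a control barcode's UMIs, and from 0.433% over 5.13% to 15.3% in the Cre library. Zg16 reached the highest share of any of the 7, 35.2% of the UMIs of 1 control barcode, over a median of 8.22%, and 30.7% over a median of 7.96% in the Cre library. Agr2 had a median of 0.122% and 0.163% and a highest value of 1.82% and 3.27%. The highest Agr2 barcode thus stood many times above the median one in both libraries, a longer upper tail than that of Muc2.

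To compare detection at 1 depth, barcodes were thinned to 2000 UMIs, which left 217 control and 387 Cre barcodes. At that depth all 7 genes were detected in 178 of 217 barcodes (82.0%) and 333 of 387 (86.0%), and at least 6 in 212 and 384. Agr2, the least abundant, was the one most often missed, with at least 1 UMI in 83.4% and 86.8% of the thinned barcodes, where Muc2 had one in 99.5% and 100%. Without thinning, Agr2 was found in 92.1% and 96.1% of goblet-like barcodes.

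Across these thinned barcodes the 7 genes varied together to different degrees, given as Spearman correlations without a test because barcodes of 1 library are not replicates and share a fixed total. Muc2 and Fcgbp, the structural proteins of the net, varied together most closely, with 0.62 in the control and 0.65 in the Cre library. Tff3 and Zg16 had 0.58 and 0.63, and Zg16 and Clca1 0.54 and 0.64. Spink4 was as close to Clca1 as to Agr2, with 0.51 and 0.40 for either pair. Muc2 showed no such relation with Spink4, at -0.06 and 0.04, and an inverse one with Agr2, at -0.27 and -0.33. Barcodes with more Muc2 thus tended to hold less Agr2 in both libraries.

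**Figure D2:**
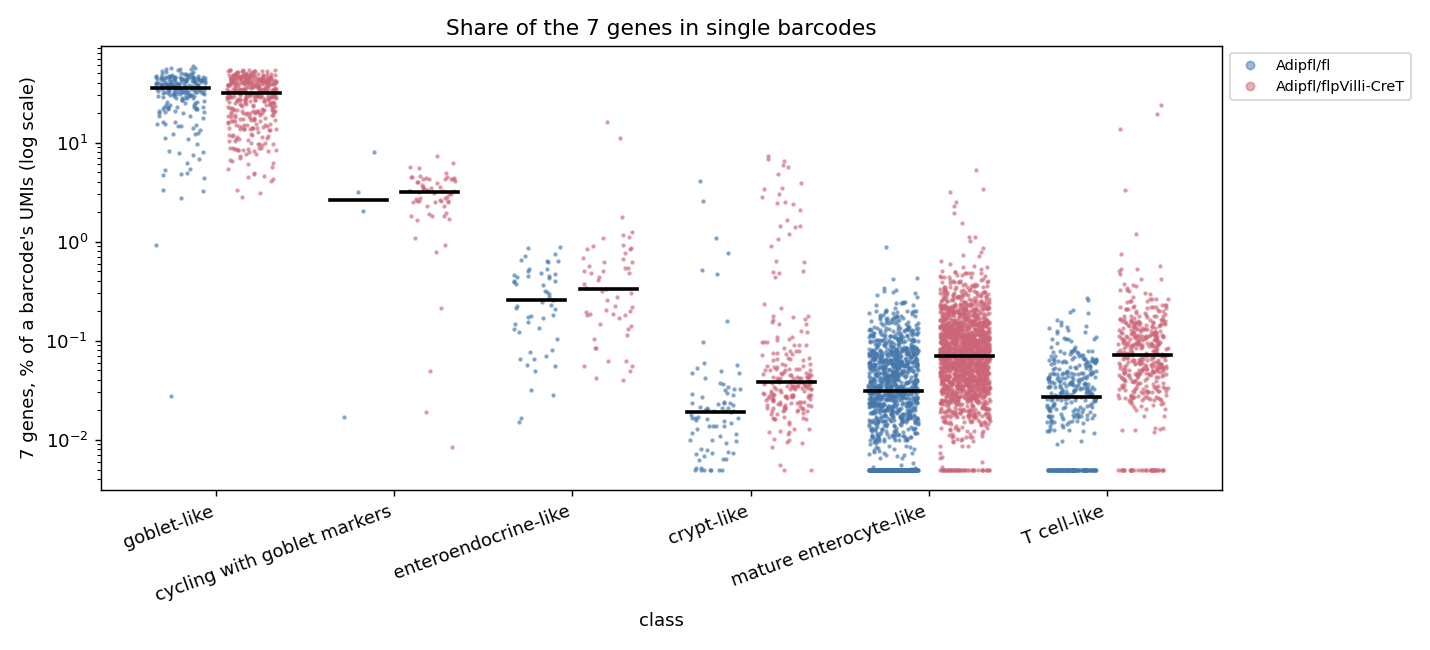
Share of the 7 genes in the UMIs of single barcodes, in percent on a log axis, for 6 classes, with blue for Adipfl/fl and red for Adipfl/flpVilli-CreT. Each dot is 1 barcode, black lines are medians, and dots at 0.005% stand for barcodes at or under that share, 0 included. Goblet-like medians stand at 35.3% and 32.0%, and a few red dots of T cell-like and enterocyte-like barcodes stand far above their own medians.

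The goblet-like class was split once more after the data were seen, again without the 7 genes, and gave 3 sub-clusters that are named here by their leading gene. The Gbp2-led one (122 control and 158 Cre barcodes) was led by Gbp2, Ido1, H4c3 and Plek2. The Nts-led one (58 and 101) was led by Nts, Defa39, Ang4 and Lyz1 and carried 6 of the 9 Paneth markers. The Maob-led one (47 and 148) carried 14 of the 14 mature enterocyte markers and 8 of 12 early enterocyte markers, with Apoa1, an apolipoprotein of enterocytes, at 11120 and 10774 CPM against 1469 and 1607 in the Gbp2-led one. Whether its barcodes hold 1 cell or 2 was not tested.

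The sum of the 7 genes was 393802 and 410710 CPM in the Gbp2-led sub-cluster, 418818 and 381043 in the Nts-led one, and 158422 and 163171 in the Maob-led one, control library first. Within a sub-cluster the folds of the sum, 1.04 (1.04 to 1.05), 0.910 (0.905 to 0.914) and 1.03 (1.02 to 1.04), lay closer to 1 than the 0.835 over the whole class. The Maob-led barcodes, the poorest in mucus RNA, were 20.7% (15.6 to 26.6) of the goblet-like barcodes in the control and 36.4% (31.7 to 41.2) in the Cre library, a ratio of 1.76 (1.26 to 2.49). They were also the deepest, with a median of 9110 and 9256 UMIs.

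Muc2 was highest in the Gbp2-led sub-cluster, at 75876 CPM in the control and 85289 in the Cre library, then in the Nts-led one, at 44903 and 42087, and lowest in the Maob-led one, at 21158 and 24222. Agr2 had a different order, with 7250 and 9912 in the Nts-led, 2964 and 3359 in the Maob-led, and 1139 and 1500 in the Gbp2-led sub-cluster. The level of Agr2 in the Nts-led over the Gbp2-led barcodes was 6.37-fold (5.87 to 6.91) in the control and 6.61-fold (6.21 to 7.04) in the Cre library. Spink4 went the same way, at 3.30-fold (3.19 to 3.42) and 2.14-fold (2.08 to 2.20), and Muc2 the other way, at 0.592-fold (0.583 to 0.601) and 0.493-fold (0.487 to 0.500). The summed levels of Muc2 and Agr2 were therefore highest in different sub-clusters, in both libraries. The Nts-led sub-cluster also carried 6 of the 9 Paneth markers, and the part of Paneth transcripts in this contrast was not tested. These contrasts describe sub-clusters formed on other genes of the same barcodes and have no test.

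Between the libraries, Agr2 was higher in the Cre library within each sub-cluster, at 1.32-fold (1.195 to 1.45) in the Gbp2-led, 1.13-fold (1.08 to 1.19) in the Maob-led and 1.37-fold (1.32 to 1.42) in the Nts-led one. Fcgbp was lower within each, at 0.924, 0.886 and 0.919-fold. Zg16 and Tff3 were lower only in the Nts-led barcodes, at 0.906 (0.899 to 0.914) and 0.897 (0.889 to 0.905), and stood at 1.04 (1.03 to 1.05) and 1.03 (1.02 to 1.04) in the Gbp2-led and at 0.998 (0.986 to 1.01) and 1.04 (1.02 to 1.05) in the Maob-led ones. For Muc2 the direction differed between sub-clusters, with 1.12 (1.11 to 1.14) in the Gbp2-led and 1.14 (1.12 to 1.17) in the Maob-led against 0.937 (0.923 to 0.951) in the Nts-led one.

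**Figure D3:**
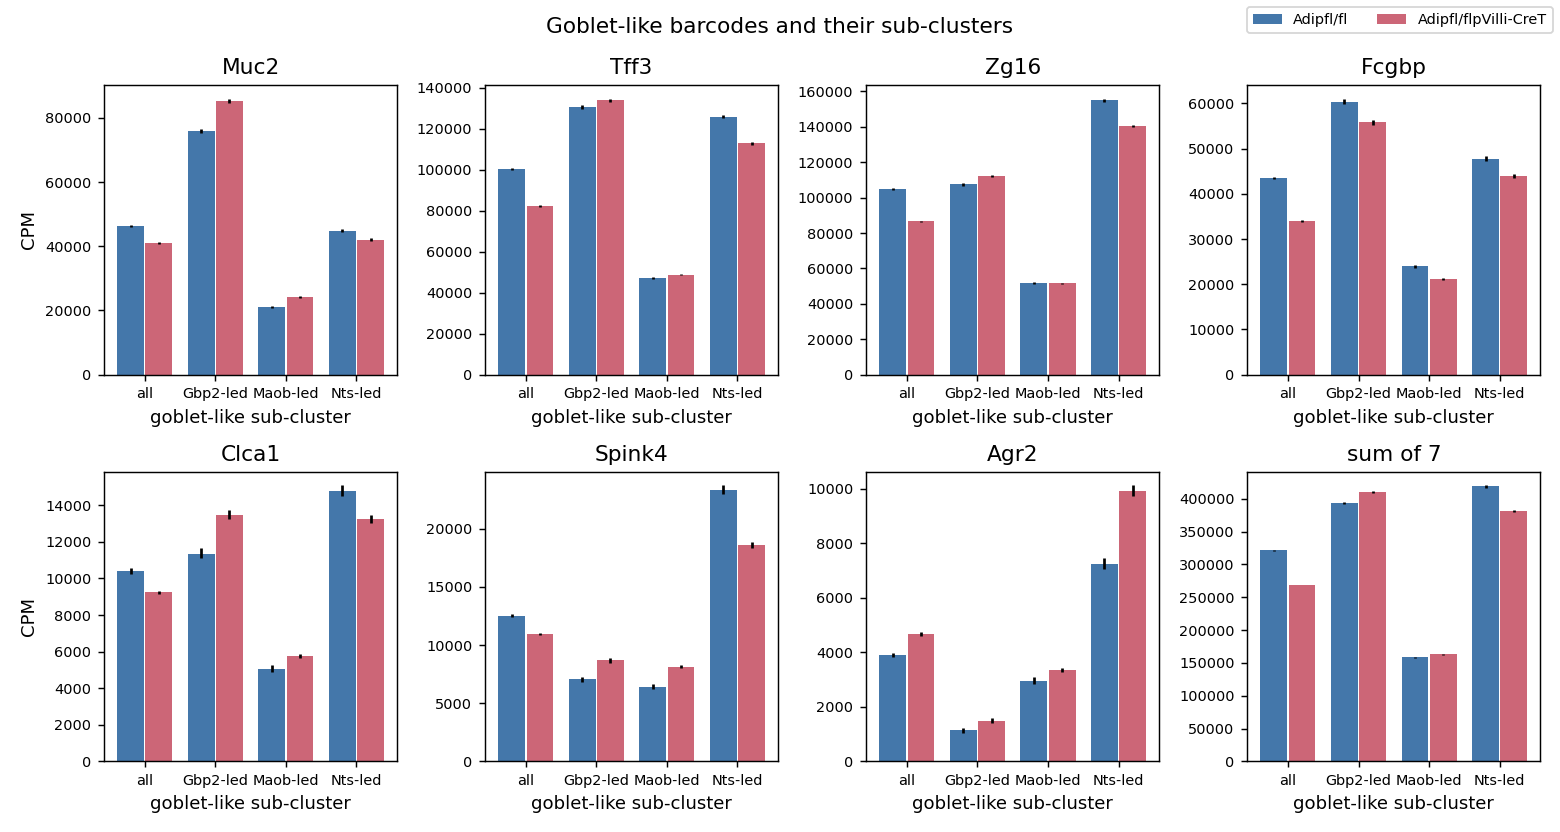
Level of each gene in all goblet-like barcodes and in their 3 sub-clusters, in CPM on linear axes from 0, with blue for Adipfl/fl and red for Adipfl/flpVilli-CreT. Bars are summed levels of 1 library and black lines 95% exact Poisson intervals. Muc2 stands highest in the Gbp2-led bars and Agr2 and Spink4 in the Nts-led ones, and the Maob-led bars are lowest for the sum.

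Outside the goblet-like class the sum of the 7 genes was lower in each of the other 12 classes, from 177.6 to 43209 CPM in the control and from 467.9 to 30766 in the Cre library. T cell-like barcodes, which are lymphocytes of the epithelium and do not make mucus, served as a measure of RNA from other cells in the droplets. There were 364 of them in the control and 441 in the Cre library, and the sum of the 7 genes was 307.6 CPM (282 to 335) in the control and 4079 (3991 to 4169) in the Cre library, a fold of 13.3 (12.2 to 14.5). The mean goblet-like level was 1046 times the T cell-like level in the control and 65.9 times in the Cre library. T cell markers were nearly absent from goblet-like barcodes in return, with Cd3e at 1.04 and 1.09 CPM against 1241 and 1193 in T cell-like barcodes.

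Much of the T cell-like sum of the Cre library sat in few barcodes. The 5 richest barcodes held 79.8% of its UMIs, against 6.69% in the control. More than 1% of the UMIs came from the 7 genes in 5 of 441 Cre barcodes and in 0 of 364 control barcodes, which allows a share of up to 0.824%. Of the 5 barcodes, 3 were above 5%, and their median Scrublet score, a measure of likeness to simulated doublets, was 0.362, against 0.0513 in the other T cell-like Cre barcodes. Scrublet called nearly no barcode in either library, so these scores are given as values and not as doublet calls. With the barcodes above 1% left out, a step chosen after the data were seen, the Cre level was 860.2 CPM (819 to 903) and the fold 2.80 (2.54 to 3.09). This cut was made on the same 7 genes and took out only Cre barcodes, so it lowered the Cre level and the fold by design. The per-barcode median, which few rich barcodes do not move, was 0.0269% in the control and 0.0720% in the Cre library. Thinned to 2000 UMIs, 48.5% of control and 74.6% of Cre T cell-like barcodes held at least 1 UMI of the 7 genes. The higher level in Cre T cell-like barcodes therefore had a part in few rich barcodes and a part spread over the class.

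All 6 members with a usable level in T cell-like barcodes were past 1.5-fold higher in the Cre library, where 7.61% of 3458 genes were. Muc2, Fcgbp, Clca1 and Spink4 reached that level only in the Cre library, so the count is a description. Muc2 had 41.2 CPM in the control and 772.7 in the Cre library, an 18.8-fold difference (14.8 to 24.1), and Tff3 85.2 and 1307, or 15.3-fold (13.0 to 18.2). Fcgbp was 13.7-fold higher, Clca1 13.1-fold, Zg16 10.4-fold, Spink4 8.72-fold and Agr2, which had no usable level, 7.52-fold (3.76 to 17.1), from 9 and 77 UMIs. Without the barcodes above 1%, 4 of 4 members with a usable level were past 1.5-fold higher, where 6.61% of 3450 genes were, with Muc2 at 3.35-fold (2.58 to 4.41), Zg16 at 3.18-fold (2.71 to 3.74), Tff3 at 2.52-fold (2.09 to 3.06) and Fcgbp at 1.76-fold (1.31 to 2.39). Muc2 and Fcgbp again reached that level only in the Cre library, so this count is also a description. Enterocyte transcripts were also higher there, with Apoa1 at 1901 CPM in the control and 4413 in the Cre library over all T cell-like barcodes.

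In control T cell-like barcodes the 7 genes stood in nearly the proportions of the goblet-like class, with Zg16 at 36.8% of their sum, Tff3 at 27.7%, Muc2 at 13.4% and Fcgbp at 12.8%. The same was seen in mature enterocyte-like barcodes. Their sum was 334.2 CPM in the control and 796.2 in the Cre library, 2.38-fold (2.29 to 2.48), and 4 of 4 members with a usable level were past 1.5-fold higher, where 1.1% of 3004 genes were. Fcgbp reached that level only in the Cre library. Villus tip-like barcodes held 483.3 and 1377 CPM, early enterocyte-like ones 199.3 and 1478, and tuft-like ones 483.6 and 4738. Without the barcodes above 1%, 11 of 437 early enterocyte-like and 2 of 62 tuft-like ones in the Cre library and none in the control, the Cre sums were 413.7 and 764.6, and the folds 2.08 (1.94 to 2.22) in place of 7.42 and 1.58 (1.37 to 1.83) in place of 9.80. The cut was again made on the 7 genes and lowered these folds by design. In the Cre library a single barcode held 93.9% of the UMIs of the 7 genes in the cycling T cell-like class and another 96.2% of those in the myeloid-like class, so the class levels of 7917 and 15737 CPM rest on 1 barcode each.

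**Figure D4:**
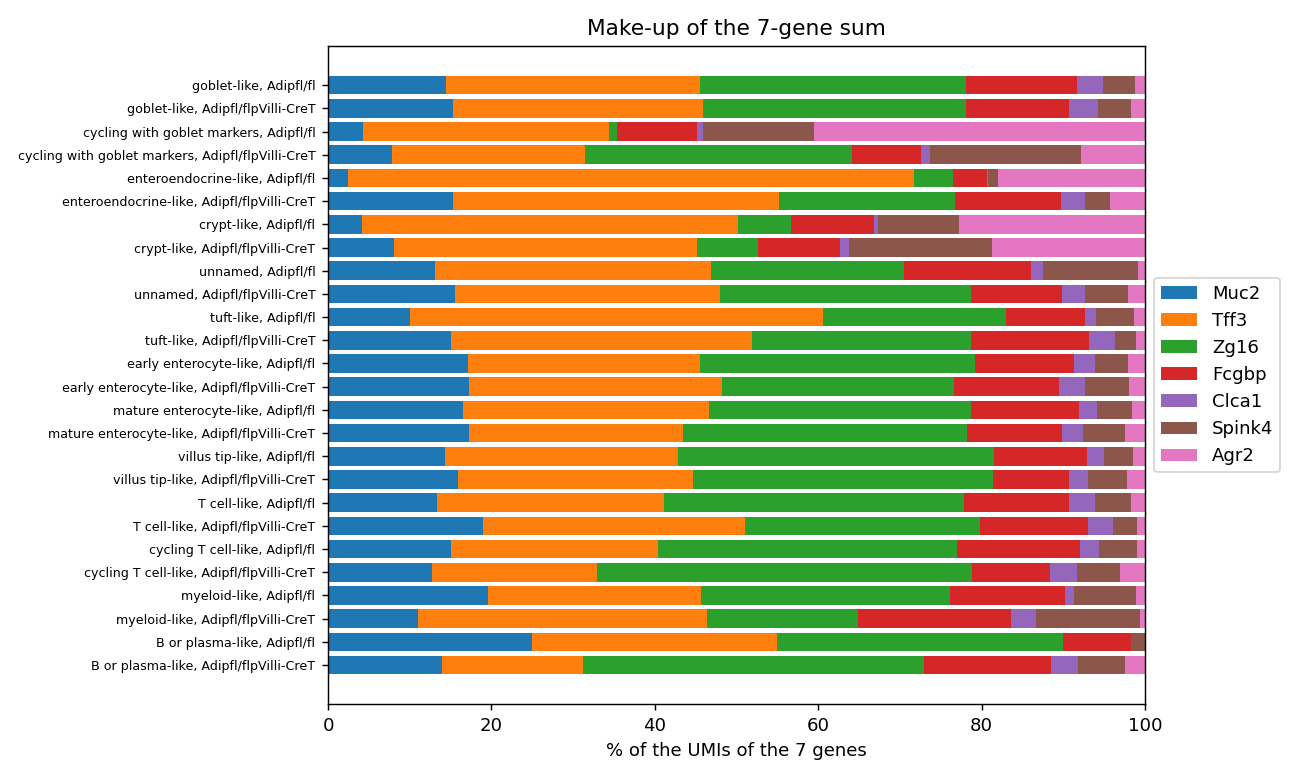
Make-up of the 7-gene sum in 13 classes and both libraries, as the percent of the UMIs of the 7 genes that each gene gave. T cell-like and enterocyte-like bars resemble the goblet-like bars, while crypt-like bars of both libraries and the enteroendocrine-like bar of Adipfl/fl hold more Agr2 and Tff3 and less Zg16.

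Enteroendocrine-like barcodes were named after the hormone cells of the epithelium. A cluster of 24 control and 28 Cre barcodes within the class carried 5 enteroendocrine and 5 goblet markers. It took the enteroendocrine name because 5 was the larger share of that list. The class held the 7 genes in other proportions. In the control library Tff3 gave 69.3% (66.6 to 71.9) of its sum and Agr2 18.0% (15.8 to 20.3), where the goblet-like class had 31.1% and 1.21%. The level of Tff3 was 2007 CPM and that of Agr2 521.6 in these 55 barcodes, against 85.2 and 5.15 in T cell-like barcodes of the same library. In the Cre library the 57 barcodes had a sum of 13803 CPM against 2896 in the control, with 52.1% of it in 1 barcode. In the 50 Cre barcodes at or under 1% the sum was 2955, 1.02-fold (0.940 to 1.11) of the control, with Tff3 at 1872, Agr2 at 454.8 and Muc2 at 109.2 CPM. The enteroendocrine-like levels of Tff3 and Agr2 then stood at 0.933-fold (0.843 to 1.03) and 0.872-fold (0.710 to 1.07) of the control. The 1% cut was made on the same 7 genes and took out 7 Cre and 0 control barcodes, so it lowered the Cre sum by design. That these intervals include 1 is therefore no measure of likeness between the libraries.

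Crypt-like barcodes carried 11 of 11 stem and 11 of 12 cycling markers. They also carried 5 of 5 fibroblast or muscle, 3 of 9 Paneth and 3 of 12 early enterocyte markers. These barcodes too held more Agr2 and less Zg16 than the goblet proportions. Agr2 gave 22.7% of their sum in the control and 18.7% in the Cre library, Spink4 9.99% and 17.6%, and Zg16 6.54% and 7.47%. These shares rest in large part on rich barcodes, and in the barcodes at or under 1% Agr2 gave 3.95% and 9.73%, Spink4 6.99% and 12.02%, and Zg16 19.3% and 18.0%, against 1.21% and 1.74%, 3.90% and 4.07%, and 32.6% and 32.2% in the goblet-like class. The sum was 850.3 CPM in 82 control and 3682 in 217 Cre barcodes, 4.33-fold (4.13 to 4.54), and 6 of 6 members with a usable level were past 1.5-fold higher, where 1.2% of 3660 genes were. Muc2 reached that level only in the Cre library. Rich barcodes above 1% were 3 of 82 and 21 of 217. Without them the sum was 290.2 and 633.7 CPM, 2.18-fold (2.01 to 2.38), and Agr2 stood at 11.5 and 61.7. The cut was made on the 7 genes and lowered both sums by design. The crypt-like median barcode held 0.0192% and 0.0380%.

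A small class of cycling barcodes carried 8 of the 18 goblet markers, with 4 control and 64 Cre barcodes. It also carried 5 of the 9 Paneth markers and 3 of the 12 early enterocyte markers. Its sum was 43209 and 30766 CPM, in the Cre library 11.4% of the goblet-like level. In the Cre library Zg16 stood at 10058, Tff3 at 7255, Spink4 at 5696, Fcgbp at 2592, Muc2 at 2410, Agr2 at 2395 and Clca1 at 360.1 CPM. Against the goblet-like class of that library, Spink4 and Agr2 were therefore nearer to their goblet-like levels than Muc2, Fcgbp or Clca1. The same Cre barcodes held the T cell markers Gzma at 989.6 and Cd3e at 15.1 CPM, against 20.1 and 1.09 in Cre goblet-like barcodes. Apoa1, at 3301, was lower than the 6447 of all Cre goblet-like barcodes. By sub-cluster these held 10774 in the Maob-led, 1607 in the Gbp2-led and 1087 in the Nts-led one. The Apoa1 level of the cycling class thus lay above those of the Gbp2-led and Nts-led barcodes. The part of RNA from other cells in this class was not tested. The control values rest on 4 barcodes, 1 of which held 89.5% of the UMIs of the 7 genes, and are not set against them.

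Counted over whole libraries, 94.7% of all UMIs of the 7 genes lay in goblet-like barcodes of the control library and 87.6% in those of the Cre library. Other barcodes that passed held 2.09% and 9.57%. Clca1 was the most restricted, with 96.7% and 91.2% in goblet-like barcodes, and Agr2 the least, with 77.2% and 70.4%. Spink4 had 92.8% and 78.2%, with 3.89% and 19.0% in other barcodes that passed. Barcodes outside the goblet-like class that took more than 1% of their UMIs from the 7 genes were 9 of 2842 in the control (0.317%, 0.145 to 0.600) and 162 of 5148 in the Cre library (3.15%, 2.69 to 3.66). Of the 44 above 5% in the Cre library, 21 were in an unnamed cluster with a median mitochondrial share of 18.6%.

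Barcodes that failed the filter held the 7 genes as well. Those with 500 or fewer genes had 2292 CPM in the control and 4333 in the Cre library, 1.89-fold (1.83 to 1.95), and those with 25% or more mitochondrial UMIs 1050 and 1732, 1.65-fold (1.61 to 1.68). The level in barcodes that had failed the filter was thus also higher in the Cre library. These barcodes were not clustered, so goblet cells can be among them. Of those with 500 or fewer genes, 8 control and 10 Cre barcodes took more than 20% of their UMIs from the 7 genes. The part of doublets in the levels outside goblet-like barcodes was not tested. Scrublet scores are given above for T cell-like barcodes, and their fold without the 8% highest scores is given further on.

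Of the genes outside the 7, the 10 whose profile was most like theirs were ranked by Pearson correlation of log2(CPM + 1) with the mean of the 7, over 26 points (13 classes in 2 libraries). Bcas1 had 0.953, Tpsg1 0.935, Fer1l6 0.930, Atoh1 0.917, Rep15 0.903 and Gm44985 0.902. Spdef followed with 0.898, Ern2 with 0.882, Itln1 with 0.866 and Qsox1 with 0.862. Bcas1, Tpsg1, Fer1l6, Atoh1, Rep15, Spdef and Ern2 were among the markers that named the goblet-like class and Itln1 among the Paneth markers, so their likeness is partly set by the naming. Of the remaining pair, Qsox1 encodes an enzyme that forms disulfide bonds and stood at 679.2 CPM in control and 598.3 in Cre goblet-like barcodes. Within the 7, Fcgbp was closest to the mean (0.995) and Agr2 farthest (0.890).

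The machinery around the mucins was read from lists of genes, each with the number of genes that had a usable level in goblet-like barcodes. Of all 2779 genes with such a level, 6.66% were past 1.5-fold higher and 1.51% past 1.5-fold lower, with a median fold of 1.08. The smaller share of the 7 genes in the Cre library by itself raises the CPM of all other genes, so folds above 1 are partly set by the fixed total. Of 10 transcription factors of goblet cells, 6 had such a level and none was past 1.5-fold, with a median fold of 0.822. Klf4, which acts late in goblet maturation, stood at 1227 and 966.6 CPM and Atoh1, which sets the secretory fate, at 340.1 and 274.0. Spdef, a factor of goblet maturation, had the lowest fold, 0.714 (0.623 to 0.819), and Creb3l1 the highest, 1.02. These are levels of the whole class, in which the Maob-led barcodes were a larger share in the Cre library. Atoh1 stood at 603.4 and 546.2 CPM in the Gbp2-led, 292.1 and 298.4 in the Nts-led and 153.3 and 162.3 in the Maob-led barcodes. In the same order Spdef stood at 276.3 and 192.1, 211.7 and 191.9, and 97.1 and 91.2. The part of the make-up of the class in these folds, and in those of the lists that follow, was not tested.

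Of 32 genes of mucin O-glycosylation, 20 had a level and none was past 1.5-fold, with a median of 0.964. St3gal4, a sialyltransferase, was the most abundant at 440.1 and 615.4 CPM, the largest fold of the list at 1.40 (1.29 to 1.51), followed by Galnt7, which starts O-glycan chains, at 406.8 and 408.0. Galnt5 had the lowest fold, 0.696 (0.558 to 0.870). Of 22 genes that fold and check secreted proteins, 16 had a level and none was past 1.5-fold, with a median of 1.17. P4hb, a protein disulfide isomerase like Agr2, stood at 844.3 and 1059, the chaperone Hspa5 at 480.8 and 603.7, and Calr at 512.0 and 562.1. Pdia6 had the highest fold, 1.497 (1.30 to 1.73), just under the limit. Ern2, the stress sensor of mucous epithelia, had the lowest, 0.683 (0.597 to 0.782), from 200.5 and 137.0. The fold lay above 1 for 14 of these 16 genes (87.5%), where it did for 64.3% of all 2779 genes with a level.

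Of 19 genes of granule formation and exocytosis, 16 had a level and 0 were past 1.5-fold higher and 1 lower, with a median of 0.870 against 1.08 for all genes. Sytl2 stood at 783.4 and 585.5 and Rab27b at 407.3 and 324.8 CPM, both parts of the machinery that docks granules. Unc13b was the 1 gene past the limit, at 0.654 (0.539 to 0.795), and Nlrp6 had the highest fold, 1.25. These too are levels of the whole class, and the part of its larger Maob-led share in the Cre library was not tested. Of 12 genes of ion transport and mucus release, 8 had a level, 5 were past 1.5-fold higher, where 6.66% of all genes were, and 0 lower, with a median of 1.64 against 1.08. Slc26a3, Slc4a4 and Mep1a reached that level only in the Cre library, so the count is a description. The bicarbonate transporter Slc4a4 had 39.1 and 92.4 CPM, 2.37-fold (1.84 to 3.08), Slc26a3 27.1 and 63.3, Clca4a 126.1 and 275.9, Clca4b 280.2 and 459.1, and the protease Mep1b, which enterocytes also express, 184.9 and 303.9. T cell-like barcodes at or under 1% held these genes at higher levels in the Cre library too, with Clca4a at 122.3 and 348.1, Clca4b at 126.3 and 286.9 and Mep1b at 30.3 and 121.9. The Maob-led barcodes with enterocyte genes were also a larger share of the goblet-like class in the Cre library, and the part of either in the folds was not tested.

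Of 19 other secreted products of goblet cells found in the tables, 10 had a level, 0 were past 1.5-fold higher and 2 lower, with a median of 0.919. Lypd8, a surface protein that binds flagellated bacteria, stood at 3110 and 3523 CPM and Guca2a, which encodes the hormone guanylin, at 2044 and 1513. The 2 genes past the limit were Reg4, at 50.5 and 5.98, or 0.118-fold (0.0709 to 0.190), and Ang4, an antimicrobial of Paneth and goblet cells, at 95.3 and 15.8, or 0.165-fold (0.121 to 0.223). Both reached a usable level only in the control library, so this count too is a description. Of the 97 control UMIs of Reg4, 87 lay in the Maob-led barcodes, where Chga, a marker of enteroendocrine cells, stood at 182.1 CPM in the control and 15.5 in the Cre library. Enteroendocrine-like barcodes held Reg4 at 8675 and 12084 CPM, the Nts-led barcodes at 14.9 and 14.8 and the Gbp2-led ones at 0 and 4.09. The low fold of Reg4 was thus measured in the Maob-led barcodes and not in the others, and the part of enteroendocrine transcripts in it was not tested. Ang4 lay mostly in the Nts-led barcodes, at 226.6 and 35.8 CPM. Of the Paneth transcripts in the same barcodes, Defa24 stood at 9366 and 4451 CPM and Lyz1 at 228.0 and 497.7, so they differed between the libraries in both directions. Of 9 membrane mucins and related genes in the tables, 4 had a level and none was past 1.5-fold, with Muc13 at 2149 and 2228 and Cdhr5 at 1080 and 1124, and folds from 0.877 for Muc3a to 1.08 for Muc3. The gel mucins of other organs had no usable level in goblet-like barcodes. Muc5ac, Muc5b and Muc19 had 0 UMIs in both libraries and Muc6 had 1 and 4, so Muc2 was the gel-forming mucin measured there.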

How the data were processed

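Per the labels, tissue was dissociated, cleared of dead cells and captured with the 10x Genomics Chromium 3′ kit (V3). The authors converted reads with bcl2fastq 5.0.1 and counted UMIs with Cell Ranger on mm10, per the submitters' processing notes, and the file headers name Cell Ranger 7.1.0. They deposited raw UMI counts per gene and barcode, not normalized and not filtered by quality, for 1 library per genotype, whose pooling of animals leaves no replicates.

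The quality filter asked for more than 500 genes and for a mitochondrial share under 25%, the limits in the study's methods. It left fewer barcodes in both libraries than the study kept, and the reason is not given in the sources used here. Seurat 5.3.0 (R 4.3.3) log-normalized the remaining barcodes (scale factor 10000) and clustered both libraries together on 20 principal components of 2000 variable genes at resolution 0.8, giving 21 clusters in 13 classes. The 7 genes were left out of the variable genes and the naming markers. A name needed 3 markers at least 2-fold higher than in other barcodes, each with at least 10 UMIs, so names can differ from the study's. The split of goblet-like barcodes (resolution 0.4) was chosen after the data were seen. No barcode was taken out as a doublet in the main setting. The automatic calls of Scrublet (scanpy 1.11.5, Python 3.11.15) marked only 3 and 2 barcodes and were not used. An alternative setting left out the 8% of barcodes with the highest scores.

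Levels, shares and folds carry exact 95% Poisson, Clopper-Pearson and conditional intervals (scipy 1.17.1). Only the fold interval was tried on simulated counts. These were drawn from the Poisson model that it assumes, so the trial does not cover the clumping of UMIs in single barcodes. A usable level needs at least 50 CPM (UMIs scaled to a class total of 1000000) in the higher library and 20 UMIs in all. A count of 0 allows up to 3 UMIs. The text names the 7 genes, the 10 genes with the most similar profile and, of each list, those highest or with the largest fold in either direction. Gene positions are from GENCODE and upstream windows from RefSeq, found for 3 of 7 genes. Members and lists were chosen with earlier results of these data known.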

Additional observations from a re-analysis of the deposited data

Results flagged for a closer look

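Between the 2 libraries the goblet-like and the T cell-like barcodes differed in opposite directions, which is why these folds (Cre over control library) are set side by side. With 1 library per genotype the difference was not tested. The fold of the summed level was 0.835 in goblet-like and 13.3 in T cell-like barcodes. For Muc2 the folds were 0.886 and 18.8, for Tff3 0.821 and 15.3, for Zg16 0.825 and 10.4, for Fcgbp 0.781 and 13.7, for Clca1 0.888 and 13.1, and for Spink4 0.873 and 8.72. Agr2 was the exception, higher in both classes, at 1.199 and 7.52. Without the T cell-like barcodes above 1% the T cell-like fold of the sum was 2.80, and without the goblet-like sub-cluster of enterocyte genes the goblet-like fold was 0.968.

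Barcodes with 500 or fewer genes are in none of the classes, and only their summed level was set between genotypes above. Even so, 11 of 2052 control and 29 of 2020 Cre ones took more than 5% of their UMIs from the 7 genes. Of these, 8 and 10 were above 20%, a share that the goblet-like class also reached in 190 of 227 and 300 of 407 barcodes.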

How the results depend on the processing

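No paired analysis was possible because each genotype has 1 library. The fold of the goblet-like sum, 0.835, was 0.817 with the 7 genes kept among the variable genes, 0.839 at resolution 1.2, 0.830 with 30 components, 0.840 above 1000 genes, 0.847 under 10% mitochondrial UMIs, 0.844 without mitochondrial UMIs in the total, 0.775 without the 7 genes in the total, 0.841 without the richest barcode and 0.823 with the T cell-like level subtracted. It was 0.923 as a mean over barcodes and 0.920 after thinning, and, chosen after the data were seen, 0.968 without the enterocyte sub-cluster and 0.983 as the mean of 3 sub-clusters. Naming single barcodes by their own markers kept only 43 and 47 barcodes. It reversed the sum to 1.02, Tff3 to 1.13, Clca1 to 1.12 and Spink4 to 1.1998, put 1 gene past 1.5-fold (Agr2, 1.74) in place of 0, and gave a ratio of goblet-like shares of 0.604 in place of 0.991. Clca1 also reversed to 1.02 as a mean over barcodes, 1.02 after thinning, 1.01 without the enterocyte sub-cluster and 1.04 as the mean of sub-clusters, Spink4 to 1.05 as a mean over barcodes and 1.01 after thinning, and Muc2 to 1.03 and 1.07 without the sub-cluster and as the mean of sub-clusters. The cause was not tested.

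The T cell-like fold of the sum, 13.3, was 10.9 above 1000 genes, 5.01 under 10% mitochondrial UMIs, 2.80 without the 8% highest Scrublet scores, 6.86 as a mean over barcodes, 9.78 without the richest barcode and 2.80 without barcodes above 1% (chosen after the data were seen). The cut at 1% was made on the 7 genes and lowers the fold by design. The T cell-like fold stayed above 1 under the 12 alternatives run. The goblet-like over T cell-like ratio was 1046 in the control library and 1153, 1198, 1337, 1173 and 1542 above 1000 genes, under 10% mitochondrial UMIs, without the highest Scrublet scores, by single barcodes and without the 7 genes in the total. In the Cre library it was 65.9, and in that order of settings 88.9, 202.4, 398.2, 90.5 and 89.7, with 67.7 for 30 components, 130.1 as a mean over barcodes, 90.2 without the richest barcode and 312.4 without barcodes above 1%. Depth limits Agr2, Clca1 and Spink4 outside goblet-like barcodes, where control classes hold few UMIs of them.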
